A study of Mus musculus with 2 samples.

Results

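ATF4 peaks that lay between genes, 1 to 10 kb from a protein-coding gene, numbered 591 of the 7873 peaks called in 1 CUT&Tag library of mouse neurons. A peak was counted here when its summit, the base with most sequenced fragments, was outside every protein-coding gene, more than 1000 bp from the end of any annotated gene, and at most 10 kb from the closest protein-coding gene. The rule used the positions of peaks and not their heights. The neurons were primary cultures of cortex and hippocampus from C57BL/6 mouse embryos, and the labels call them primarily neurons. The series holds 1 library made with an antibody to ATF4 and 1 made with IgG, each from about 100000 cells; the IgG library was not analysed here. Both carry the same strain, tissue and cell labels, and whether the neurons had been treated with hemin is not stated in the sources used here. With 1 ATF4 library there was no replicate error, and every comparison is between peaks of that library. No expression was measured in this experiment, so the neuron label could not be checked against marker genes.

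ATF4 is a basic leucine zipper transcription factor whose translation rises when eIF2α is phosphorylated, as it is by the kinase PERK during endoplasmic reticulum stress. It is known for binding C/EBP-ATF composite elements, often as a heterodimer, at genes of amino acid synthesis, transfer RNA charging and stress recovery. In CUT&Tag an antibody tethers a transposase to the protein, and this enzyme inserts sequencing adapters around it. Sequence between genes can hold enhancers, which are regulatory elements that act at a distance, but a peak position does not by itself say which gene an element acts on, so a nearest gene is named below as a landmark only.

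Promoter sequences are shown for 4 genes that had an intergenic peak nearest to them and a second peak at the gene itself. They cover the gene only, and the sequence under the intergenic peaks was not used here. The sequences are from RefSeq (GRCm38.p6), cover 250 bases before to 50 after the start site, and are written 5′ to 3′ on the coding strand, which is the minus strand in all 4. In Trib3 (chr2:152344011-152344310) and Gtpbp4 (chr13:8995963-8996262), capitals mark a match to TGATGNAA or its reverse complement, the core of the C/EBP-ATF element. In Aldh18a1 (chr19:40588414-40588713) and Ddit4 (chr10:59951721-59952020), which held no such match, capitals mark the bases of the window within 10 bp of the summit of the gene-end peak.
Trib3: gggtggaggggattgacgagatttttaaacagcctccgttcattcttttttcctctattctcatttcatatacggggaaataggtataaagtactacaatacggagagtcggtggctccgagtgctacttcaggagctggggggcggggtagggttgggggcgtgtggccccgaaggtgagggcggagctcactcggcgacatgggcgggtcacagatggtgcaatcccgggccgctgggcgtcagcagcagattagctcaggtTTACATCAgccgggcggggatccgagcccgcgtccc
Gtpbp4: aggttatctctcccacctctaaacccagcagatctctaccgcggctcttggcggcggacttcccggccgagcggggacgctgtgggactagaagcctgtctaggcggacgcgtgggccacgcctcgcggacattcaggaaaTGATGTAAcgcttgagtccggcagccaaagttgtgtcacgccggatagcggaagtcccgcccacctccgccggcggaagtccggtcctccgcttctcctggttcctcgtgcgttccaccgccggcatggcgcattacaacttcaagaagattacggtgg
Aldh18a1: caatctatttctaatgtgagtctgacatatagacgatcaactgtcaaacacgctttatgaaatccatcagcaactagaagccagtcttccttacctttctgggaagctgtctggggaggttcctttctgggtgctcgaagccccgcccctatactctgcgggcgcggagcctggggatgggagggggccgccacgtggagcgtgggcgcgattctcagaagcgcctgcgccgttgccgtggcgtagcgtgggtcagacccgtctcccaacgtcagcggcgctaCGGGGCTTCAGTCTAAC
Ddit4: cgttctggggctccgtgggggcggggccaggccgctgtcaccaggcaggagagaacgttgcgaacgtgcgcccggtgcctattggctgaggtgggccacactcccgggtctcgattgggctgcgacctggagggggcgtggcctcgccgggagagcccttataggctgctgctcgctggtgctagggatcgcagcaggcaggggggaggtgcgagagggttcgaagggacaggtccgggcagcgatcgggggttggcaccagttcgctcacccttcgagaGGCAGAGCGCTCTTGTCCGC
The match in the Trib3 promoter began at base 15, counted from and including the start site. That in the Gtpbp4 promoter began 109 bases before the start site, and both lay inside a called gene-end peak. The summits of those peaks were 62 bp and 228 bp from the start sites.

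Most of the intergenic peaks were low, like most peaks of the list. 253 of the 591 (42.8%) rested on 3 fragments at the summit, beside 41.0% of all peaks, while 141 (23.9%) rested on 4 and 80 (13.5%) on 5. A further 89 (15.1%) held 6 to 9 fragments, 16 (2.71%) held 10 to 19 and 12 (2.03%) held 20 or more. Fragment numbers were solved from the fold enrichment and p-value of each peak, and 3 fragments carry a counting interval of 0.619 to 8.77 (exact Poisson, 95%), so the lowest peaks cannot be ranked among themselves. Should the peak caller have counted single reads, every number given here as fragments is a number of reads. The median fold enrichment over the local background was 4.26 (4.33 over all peaks), the median −log10 q was 2.60 (2.65) and the median width was 198 bp (207 bp), with a range of 165 to 1408 bp.

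The heights of these peaks differed from those at gene ends, while the differences from the 2 other classes compared did not pass the test. A −log10 q of at least 5 was reached by 83 of the 591 (14.0%, exact binomial 95% interval 11.3 to 17.1), beside 18.3% of all peaks in the list. Of the 1527 peaks within 1000 bp of a protein-coding gene end, 489 (32.0%) reached it, which made the intergenic share 18.0 percentage points lower (odds ratio 0.347, 95% interval 0.265 to 0.45; Fisher's exact test, two-sided, adjusted p = 1.01e-17 over 3 comparisons). Intergenic peaks 10 to 100 kb from a gene reached it in 211 of 1338 cases (15.8%; odds ratio 0.873, 0.654 to 1.16; adjusted p = 0.558, same exact test). Peaks inside protein-coding genes and away from any gene end reached it in 392 of 2840 cases (13.8%; odds ratio 1.02, 0.78 to 1.32; adjusted p = 0.896, same exact test). The sign of the difference from intergenic peaks at 10 to 100 kb turned with other thresholds and distances, and that of the difference from peaks inside genes turned without peaks on a background over 3 fragments. The median number of fragments was 4 in these 3 classes and 5 at gene ends.

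**Figure D1:**
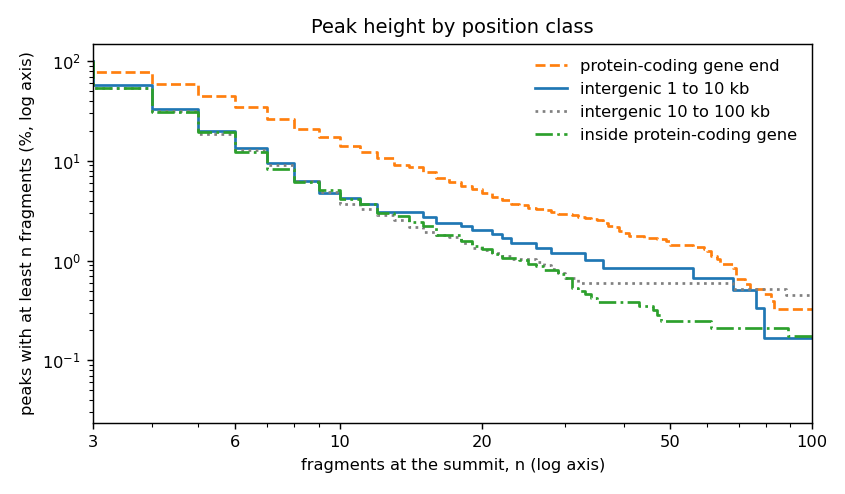
Share of peaks (%, log axis) with at least n fragments at the summit (log axis) in 4 position classes of the ATF4 library. The line for gene ends lies above the others over most of the range, with 44.9% of its peaks at 6 fragments or more against 19.8% of the intergenic peaks at 1 to 10 kb.

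Per length of sequence, these peaks were also sparser than peaks at gene ends. There were 2.84 per Mb (exact Poisson 95% interval 2.62 to 3.08), from 589 peaks in 207 Mb between the outermost genes of the chromosomes. Gene ends had 19.3 per Mb (18.3 to 20.3). The inside of protein-coding genes had 2.94 (2.83 to 3.05), an interval that overlaps that of the intergenic peaks. Intergenic sequence at 10 to 100 kb had 2.26 (2.14 to 2.39) and that beyond 100 kb 1.57 (1.49 to 1.67), both below it without overlap of the intervals. Density was computed after the peak heights had been seen, and the share of each class that can be mapped with short reads was not tested.

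**Figure D2:**
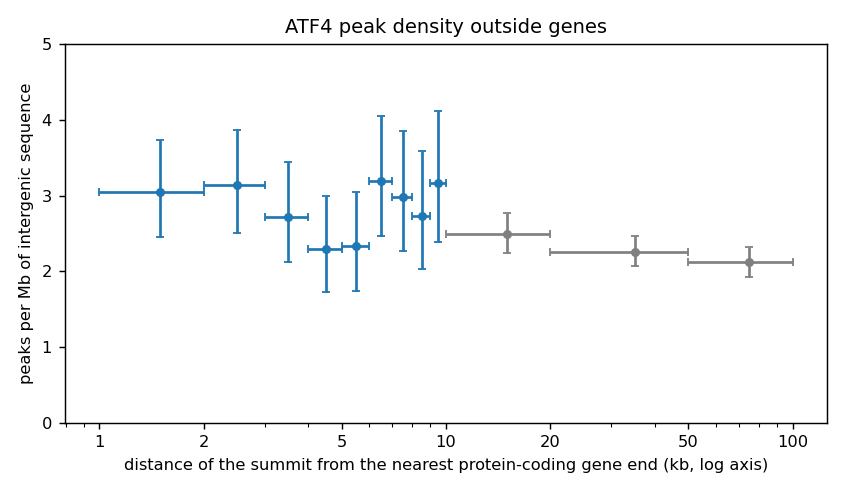
Peaks per Mb of intergenic sequence by distance of the summit from the nearest protein-coding gene end (kb, log axis). Points are bins, horizontal bars their width and vertical bars exact Poisson 95% intervals; blue bins cover 1 to 10 kb and grey bins 10 to 100 kb. The blue bins range from 2.30 to 3.19 peaks per Mb with overlapping intervals.

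Peak height followed no single direction with distance from the gene. Distances ran from 1008 to 9942 bp with a median of 4.80 kb. The share with a −log10 q of at least 5 was 10.6% of 179 peaks at 1 to 3 kb (6.51 to 16.1), 18.0% of 178 at 3 to 6 kb (12.6 to 24.4) and 13.7% of 234 at 6 to 10 kb (9.55 to 18.8). These intervals overlap. Strand was known for the nearest gene of 467 peaks, of which 246 (52.7%, 48.0 to 57.3) lay upstream of its start rather than beyond its end.

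The tallest of these peaks lay 7.52 kb beyond the end of Tmem196, on chromosome 12 from 120028663 to 120028954. It held 484 fragments (442 to 529) at a fold enrichment of 37.8, and its local background of 11.8 fragments was 1 of 4 in the group that exceeded 3 fragments. The other 3 were all upstream of 9230019H11Rik on chromosome 10, with 76, 68 and 36 fragments at 7.01, 3.40 and 9.88 kb and backgrounds of 13.2, 11.5 and 9.06. That gene was the only 1 nearest to 3 of these peaks. Whether these 4 positions collect fragments with any antibody was not tested. Without them, 79 of 587 peaks (13.5%) reached a −log10 q of 5.

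The next tallest peak was 3.96 kb beyond the end of Anp32e, which encodes a histone chaperone that removes H2A.Z. It spanned 95950991 to 95951655 on chromosome 3 and held 79 fragments (62.5 to 98.5), with a fold enrichment of 22.0 and a −log10 q of 80.7. Serpinh1, the collagen chaperone of the endoplasmic reticulum, had a peak 7.06 kb upstream on chromosome 7 from 99360133 to 99360715, with 56 fragments (42.3 to 72.7) and a fold enrichment of 18.4. These peaks stood far above the group's median of 4 fragments.

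Other tall peaks lay near genes of varied roles. The peak nearest to Tcstv3, a gene of early embryos, held 28 fragments at 3.19 kb, and that nearest to Socs7, of the suppressor of cytokine signalling family, held 33 at 2.77 kb. Peaks upstream of Rcc2, a regulator of chromosome condensation, and of Pdzrn3, a ubiquitin ligase, held 22 at 1.81 kb and 21 at 7.78 kb. A peak of 23 fragments lay 7.63 kb from Ptpn12, a tyrosine phosphatase. The rest of the 15 with the smallest p-values were near Gm8978 (15 fragments), Rusf1 (16), Aadac (19), Ccdc9 (26) and Trib3 (15). Of the 12 among these 15 with a known strand, 9 were upstream of their gene. Aside from Socs7, which shared its peak with Arhgap23, the peaks of these genes had a single protein-coding gene within 10 kb.

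The 591 peaks had 576 nearest protein-coding genes, 2.63% of the 21887 in the table. 562 genes were nearest to 1 peak and 13 to 2. A peak at an own end of the gene, with its summit within 1000 bp, was present in 38 of the 576 (6.60%, 4.71 to 8.94), beside 8.13% of all protein-coding genes, a background share that lies inside the interval. When only peaks reaching a −log10 q of 5 were counted it lay just outside, at 2.74% of all genes against 6 of 81 nearest genes (7.41%, 2.77 to 15.4). The nearest-gene share was then the higher. With peaks of 6 fragments or more it was also the higher, at 7.83% (3.64 to 14.3) beside 3.74%. The same share was 8.51% (7.0 to 10.2) for the nearest genes of intergenic peaks at 10 to 100 kb and 8.69% (7.56 to 9.94) for genes with a peak inside them. Like most protein-coding genes, most of the 576 nearest genes had no called peak at their ends. When all protein-coding genes within 10 kb were taken rather than the nearest, 49 of the 591 peaks (8.29%) had a gene-end peak beside them.

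Counted by peak, 41 of the 591 (6.94%) had a gene-end peak at the nearest gene. The share was 3.61% of the 305 peaks at 1 to 5 kb (1.81 to 6.36) and 10.5% of the 286 at 5 to 10 kb (7.19 to 14.6). The intervals do not overlap, and the 8.13% of all protein-coding genes lies above the first and inside the second; the difference was not tested. It was 9.64% of the 83 peaks that reached a −log10 q of 5 (4.25 to 18.1) and 6.5% of the 508 others (4.51 to 9.0), intervals that overlap.

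In 23 of the 41 pairs the gene-end peak was the higher. The intergenic peak held more fragments in 12 and the same number in 6, with medians of 4 fragments between genes and 7 at the gene ends. The counting intervals were separate in 5 pairs, and in 4 of these the gene-end peak was higher. Anp32e was the exception, with 79 fragments between genes and 10 (4.80 to 18.4) at the gene start. Among the 15 intergenic peaks with the smallest p-values, 4 had a gene-end peak at their nearest gene, those of Anp32e, Ptpn12, Ccdc9 and Trib3, and in these the intergenic peak was the higher. A small p-value goes with many fragments, so that direction is a description.

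**Figure D3:**
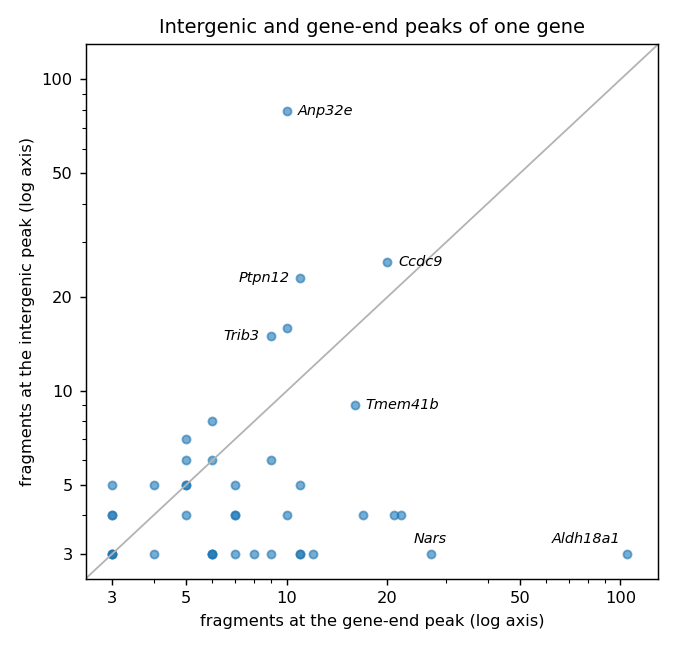
Fragments at the intergenic peak against fragments at the gene-end peak of the same gene (both log axes) for the 41 pairs; points overlap at low values and the line marks equal numbers. 12 points lie above the line, among them Anp32e (79 against 10), and 23 below it, with Aldh18a1 (3 against 105) farthest to the right.

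Of the 10 nearest genes with the strongest gene-end peaks, 8 had fewer fragments at their intergenic peaks, and Ccdc9 and Ptpn12 had more. These genes were picked for strong gene-end peaks, so that direction too is a description. Aldh18a1, which makes the precursor of proline, had 105 fragments at its start (85.9 to 127) and a second gene-end peak of 23. Its intergenic peak was 6.06 kb beyond its far end and held 3. Nars, the cytosolic asparaginyl-tRNA synthetase, had 27 (17.8 to 39.3) against 3, and Itga11, a collagen-binding integrin, had 21 against 4. Tmem41b, a lipid scramblase of the endoplasmic reticulum, had 16 against 9, and Gtpbp4, a GTPase of ribosome assembly, had 17 against 4. For Abhd2, a hydrolase, the values were 11 and 3, and for Lrfn2, a synaptic adhesion protein, they were 11 and at most 5 in 2 intergenic peaks. Ccdc9 had 20 (12.2 to 30.9) at the gene and 26 (17.0 to 38.1) at 8.27 kb upstream, and Ptpn12 had 11 (5.49 to 19.7) at the gene and 23 (14.6 to 34.5) at 7.63 kb. In both, the intervals overlap. 0610009B22Rik had 22 against 4.

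Few genes of the hand-written lists were the nearest gene of these peaks, at a share near that of genes in general. Across the 10 lists, which cover ATF4 pathways as well as activity-regulated genes, bZIP factors and translation factors and hold 249 genes, 8 genes (3.21%) were nearest to an intergenic peak at 1 to 10 kb, beside 2.63% of all protein-coding genes. 2 of the 32 genes of the ATF4 response list were among them, Trib3 and Ddit4, while 19 of the 32 had a gene-end peak, beside 8.13% of all protein-coding genes. Trib3, a pseudokinase induced by ATF4 and DDIT3, had an intergenic peak on chromosome 2 from 152349823 to 152350124, 6.04 kb upstream of its start and inside the long non-coding RNA gene Gm14164. It held 15 fragments (8.40 to 24.7) at a fold enrichment of 9.92 (q = 5.21e-13), against 9 (4.12 to 17.1) at the promoter shown above. These intervals overlap. Ddit4, an inhibitor of mTORC1, had 2 intergenic peaks of 3 fragments each, 6.66 kb beyond its end and 6.28 kb upstream, on either side of a gene-end peak of 6 (2.20 to 13.1).

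**Figure D4:**
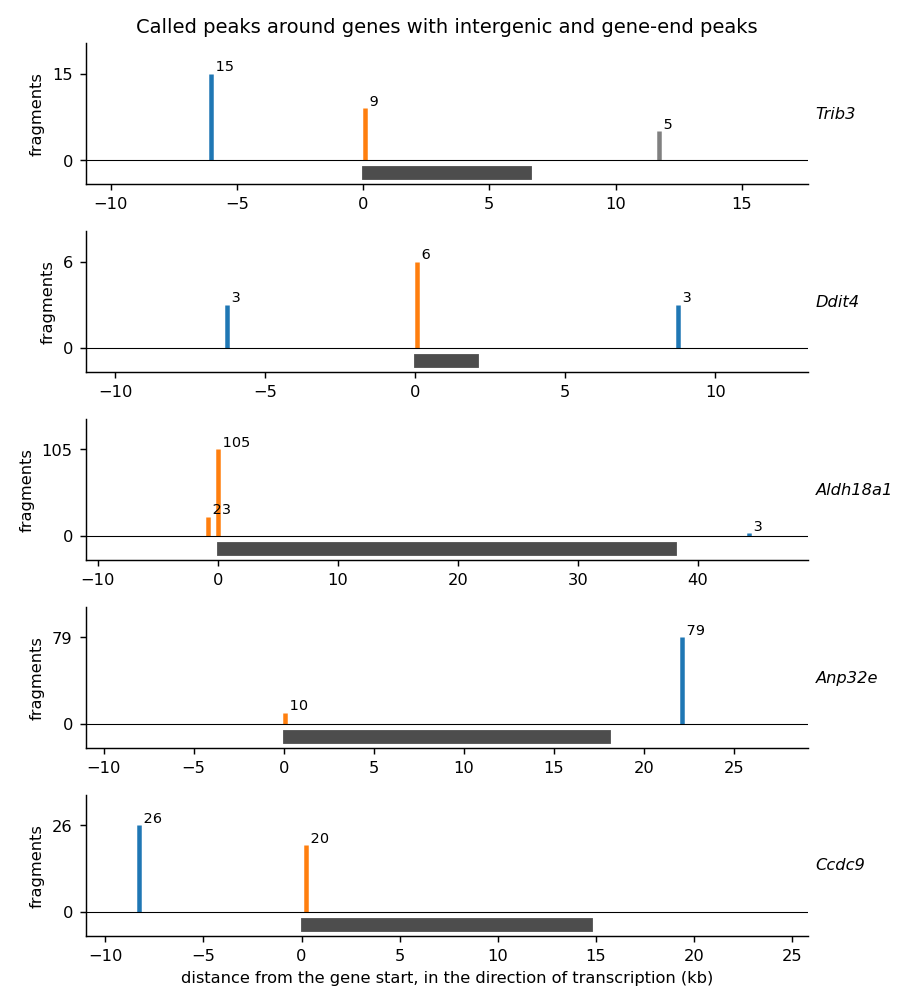
Fragments at the summit of each called peak around 5 genes, by distance from the gene start in the direction of transcription (kb). Blue lines are intergenic peaks at 1 to 10 kb, orange lines gene-end peaks, grey lines other peaks and dark bars the genes; vertical scales differ. Trib3, Ccdc9 and Anp32e have their higher peak between genes, and Aldh18a1 and Ddit4 at the gene start.

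For amino acid metabolism, 1 of the 26 genes of serine and 1C metabolism and 1 of 27 other amino acid synthesis genes were nearest to such a peak, and 8 genes of each list had a gene-end peak. The shares of all protein-coding genes for these counts are 2.63% and 8.13%. At 2.63%, lists of these sizes hold few or no nearest genes, so a low count is not particular to a list. Psph, which catalyses the last step of serine synthesis, was the serine gene. Its peak on chromosome 5 from 129761986 to 129762336 lay 3.56 kb beyond its end, with 8 fragments (3.45 to 15.8), a fold enrichment of 6.36 and a −log10 q of 5.23, and Nipsnap2 also lay within 10 kb. Psph had no gene-end peak among the called peaks, and the nearest other called peak was 179410 bp away. The paper, by contrast, shows an ATF4 CUT&Tag peak near the start site of Psph. The reason for this difference was not tested. Of Phgdh, Psat1, Psph, Shmt2, Mthfd2 and Aldh1l2, Psph alone had an intergenic peak within 10 kb. None of the 25 amino acid transporters did, and 5 of them had a gene-end peak.

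The other lists are read beside the same shares of all protein-coding genes, 8.13% with a gene-end peak and 2.63% nearest to an intergenic one. Of the 20 cytosolic tRNA synthetase genes, 13 had a gene-end peak and only Nars was nearest to an intergenic one. Among 17 mitochondrial synthetases these numbers were 2 and 0. In the unfolded protein response list of 21 genes, 3 had a gene-end peak, and Pdia6, a protein disulfide isomerase, had an intergenic peak 9.58 kb upstream with 6 fragments (2.20 to 13.1) and no gene-end peak. Of 20 activity-regulated neuronal genes, 7 had a gene-end peak and 2 immediate early genes were nearest to an intergenic peak. Ier2 had 6 fragments at 2.57 kb and 6 at its gene end, and Nr4a3, an orphan nuclear receptor, had 8 at 1.78 kb upstream and no gene-end peak. Of 49 bZIP factors 14 had a gene-end peak, and of 38 translation factors 9 did. None of either list was a nearest gene, though Eef2, the elongation factor that moves the ribosome along, lay 7.25 kb from such a peak that was nearer to another gene.

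The TGATGNAA motif, searched on both strands, was in 26 of the 454 promoters found for the 576 nearest genes (5.73%, 3.77 to 8.28), beside 4.13% of all 17492 promoters of the same length. The CRE palindrome TGACGTCA was in 7 (1.54%, 0.622 to 3.15), beside 2.54%. Of the 30 nearest genes with both a promoter sequence and a gene-end peak, Trib3 and Gtpbp4 held TGATGNAA and none held TGACGTCA. Among all 1423 such genes of the table the shares were 4.85% and 4.71%. These windows are those of the genes, and no intergenic peak interval overlapped a promoter window. Peaks were placed by summit, and some intervals reached closer to a gene. With the whole interval in place of the summit, 581 peaks were counted.

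By their surroundings, 475 of the 591 (80.4%) had a single protein-coding gene within 10 kb and 116 had 2 or more. 59 (9.98%) lay inside a long non-coding RNA gene. Another peak lay within 10 kb of 56 (9.48%, 7.24 to 12.1), beside 8.46% of all peaks, and the median distance to another peak was 90.8 kb. Olfactory and vomeronasal receptor genes, which are packed in clusters, made up 6.60% of the nearest genes and 6.68% of all protein-coding genes. The peaks were spread over 21 chromosomes, with 50 on chromosome 7, the most, and 14 on the X chromosome.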

How the data were processed

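CUT&Tag was performed by the authors on primary neurons with an ATF4 or IgG antibody. Per the labels, reads were checked with FastQC and processed with BWA, MACS2 2.1.2 and deepTools on mm10. Use of IgG in peak calling, the peak threshold and the handling of duplicates are not given in the sources used here. The deposited file gives each peak's position and summit, its fold enrichment (a ratio to local background), its p-value and q-value as −log10, and an unused display score. The authors' fold and p-value were solved for the fragments and background at each summit, assuming the MACS2 formulas, within 0.001 of −log10 p; all 7873 peaks were solved. Total depth is unknown, and intervals describe counting error alone because PCR copies were not separated from independent molecules.

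Peaks were placed on the RefSeq GRCm38.p6 gene table of 49943 genes; strand came from RefSeq promoters where present. Shares of peaks were compared by Fisher's exact test with Benjamini-Hochberg adjustment over 3 classes. Genes named are the nearest genes of the 15 peaks with the smallest p-value, nearest genes on the hand-written lists, genes nearest to 3 or more peaks, the 10 nearest genes with the strongest gene-end peak and 6 1C genes; Eef2, within 10 kb of a peak, and genes in the closing section were picked with their values in view. The peaks and lists were chosen with earlier results of these data known. The scripts were tested on simulated data. Alternatives were other thresholds, distances and biotypes, and the whole interval in place of the summit. Tests used scipy 1.17.1 and numpy 2.4.6 under Python 3.11.15, tables pandas 2.3.3 and plots matplotlib 3.10.9.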

Additional observations from a re-analysis of the deposited data

How the results depend on the processing

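Of 34 alternatives over 6 results, 24 kept the value, 6 moved it and 4 turned its sign. A number of peaks counted as kept within 1.5 times, a share within its 95% interval as reported, and a difference with the same sign and side of the threshold. These counts concern each value itself, not its place beside the share of all genes. The number of peaks, 591 as reported, was 83 with a −log10 q of at least 5, 117 with at least 6 fragments, 365 at more than 3000 bp from every gene end and 305 up to 5000 bp from a protein-coding gene; these settings keep fewer peaks by construction. The share of tall peaks was 19.8% when tall meant at least 6 fragments, beside 24.3% of all peaks. The share of nearest genes with a gene-end peak was 3.63% up to 5000 bp (1.83 to 6.4), an interval below the 8.13% of all genes. It was 7.41% (2.77 to 15.4) with a −log10 q of at least 5, an interval that began just above the 2.74% of all genes. With at least 6 fragments it was 7.83% (3.64 to 14.3), also higher than the 3.74% of all genes, which lay just inside the interval. Under the other 5 settings the share was below that of all genes, which lay inside the interval. The difference from gene ends kept its direction and passed the test under all 4 alternatives, from −25.1 to −12.5 percentage points. The difference from intergenic peaks at 10 to 100 kb, −1.73 points as reported, was 1.04 with at least 6 fragments (exact test, adjusted p = 0.775), 0.137 with a −log10 q of at least 3 (0.96) and 0.877 beyond 3000 bp (0.673). That from peaks inside genes, 0.241, was −0.156 (exact test, adjusted p = 0.947) without peaks on a background over 3 fragments, a setting chosen after seeing the data. None of these 4 passed the exact test, and the cause of the sign changes was not tested. With 1 library no replicate could be left out, and peaks of 3 fragments limit what can be ranked. No paired analysis was possible because each antibody has 1 library.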

Other observations

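A few more nearest genes are given singly. They were picked by hand after their values were seen and stand for no group. Peaks were 7.79 kb upstream of Cntn1, an axonal adhesion protein (9 fragments, fold enrichment 8.28), and 5.98 kb from Calb2, the calcium-binding protein calretinin (11 fragments, 8.48). Neurod6, a transcription factor of pyramidal neurons, had 7 fragments at 9.22 kb beyond its end, and Lsamp, a limbic adhesion protein, had 8 at 8.72 kb beyond its end. Hspa1b, an inducible heat shock protein, was nearest to 2 peaks of 5 and 3 fragments, and Cldn11, a myelin tight-junction protein of oligodendrocytes, to 2 of 5 and 4.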
